A study of Mus musculus with 32 samples.

Results

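The BCL2 family decides at the mitochondrial surface whether a stressed cell survives or dies. The data described here are the mRNA levels of 10 of its genes, taken by symbol from a list of prosurvival, effector and BH3-only members (Bcl2, Bcl2l1, Mcl1, Bax, Bak1, Bid, Bcl2l11, Bbc3, Pmaip1 and Bmf). They are 10 of 20234 genes in the deposited table, of which 17000 had a count in any library, and all 10 passed the filter on low counts in each of the fits used. The cells were mouse embryonic fibroblasts (MEFs), connective tissue cells cultured from embryos, treated with thapsigargin. This compound empties the calcium store of the endoplasmic reticulum (ER) by blocking its pump, which causes ER stress. There were 4 groups with 4 replicates each: a control group with thapsigargin for 0 h, a group treated for 1 h, a group treated for 16 h, and a group treated for 16 h in which PERK was inhibited during the last 4 h. PERK, a sensor kinase in the ER membrane, phosphorylates eIF2 during such stress, which lowers general translation while Atf4 mRNA is translated more. All 16 samples were sequenced as cytosolic RNA and as polysome RNA, the latter from sucrose gradient fractions in which mRNAs carried more than 4 ribosomes. Not given in the sources used here are strain and genotype of the cells, the thapsigargin dose, the inhibitor's name and dose and any solvent in the other groups, and no group had the inhibitor without thapsigargin. Nothing in the labels says that the replicates were separate cultures, so the p-values rest on a spread between samples that may be technical.

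Prosurvival proteins of the family (encoded by Bcl2, Bcl2l1 and Mcl1) hold the effectors BAX and BAK in check. Once freed, the effectors form pores in the outer mitochondrial membrane, cytochrome c leaves, and caspases are activated. BH3-only proteins are the sensors: they carry a single short helix that binds the groove of the prosurvival proteins, and some of them also activate the effectors directly. Under ER stress, BIM, PUMA and NOXA (from Bcl2l11, Bbc3 and Pmaip1) are the members most often studied, and the transcription factor CHOP, which acts downstream of PERK and ATF4, is known for acting on Bcl2 and Bcl2l11.

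Library totals ran from 19.32 to 41.78 M counts. Over the libraries, Mcl1 had 3952 to 10399 counts and Bbc3, the most thinly counted member, as few as 7. Fibroblast markers summed to between 7178 and 10100 CPM (counts scaled to a common library total) in control cytosolic RNA between 16900 and 20450 CPM at 1 h and between 4024 and 4686 CPM at 16 h, with all 10 of 10 markers in the table and Lum under 0.1 CPM. Epithelial, blood and endothelial markers summed to at most 8.27 CPM in any library, and Epcam, Ptprc and Emcn were under 0.1 CPM in each group. Muscle markers reached up to 53.4 CPM in control polysome libraries, with Myod1 and Myog under 0.1 CPM. The 6 neural markers summed to 133.2 to 140.6 CPM in control cytosolic RNA and 51.1 to 55.3 CPM at 16 h, with Rbfox3 under 0.1 CPM, and its part in the changes below was not tested. In bulk RNA, fewer cells of a kind and less RNA per cell cannot be told apart. Since scaling is by library total, a change is a shift against the rest of the mRNA in that library, and a loss of polysomes shared by the whole transcriptome cannot be seen.

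The level of a gene, set against the mean of the other 3 libraries of its group, depended on the GC content of its transcript, most steeply in 3 libraries. The slope was -0.45 on the log2 scale per 10 percentage points of GC in cytosolic control replicate 1, -0.38 in cytosolic 16 h replicate 1 and -0.34 in polysome control replicate 3. The trend was not limited to them. All other libraries had slopes between -0.26 and 0.32, with 0.32 in cytosolic control replicate 2 (correlation with GC 0.63). The limit of 0.33 that sets the 3 libraries apart thus lies close to the slope of that library. Members with GC-rich transcripts were low in the 3 libraries with the steepest slopes. In cytosolic control replicate 1, Bbc3 (65.2% GC) stood at 0.332 CPM, where the other 3 control libraries held 1.23 to 1.55 CPM. Bax (59.2% GC) stood at 45.03 CPM against 68.3 to 74.9 CPM, and Bak1 (57.1% GC) at 87.6 CPM against 111.9 to 128.2 CPM. Pmaip1, with the lowest GC content of the family (42.1%), was high there instead, at 6.85 CPM against 4.88 to 5.47 CPM. Values with the trend removed, or without those libraries, are given beside many of the results that they change. The trend removed was that of a library against the mean of all libraries in the fit, not of its group alone. GC-related differences between conditions were thus removed with it.

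**Figure D1:**
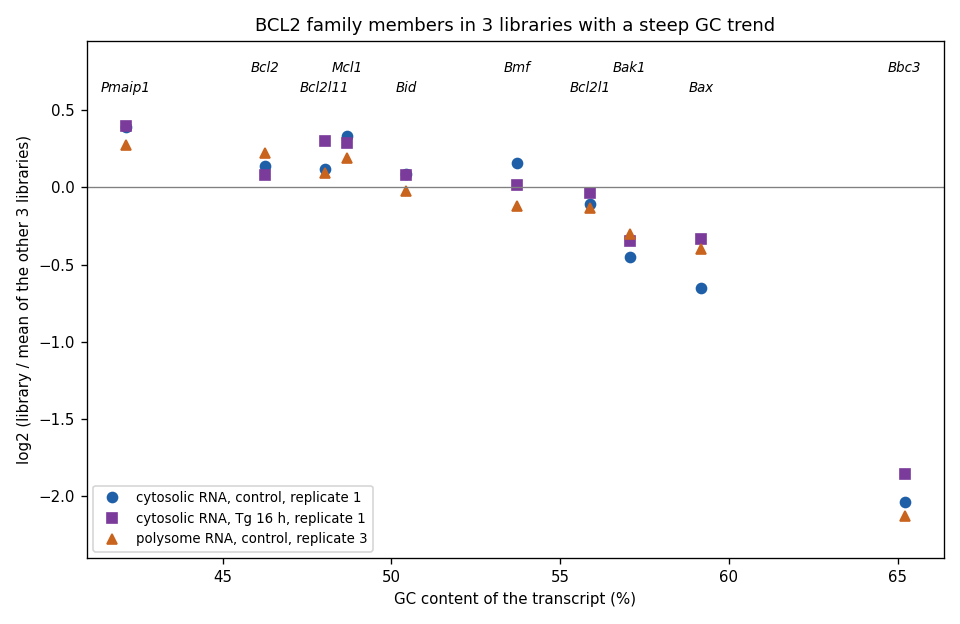
Deviation of the 10 members in the 3 libraries with a steep GC trend. The x axis is the GC content of the longest coding transcript in percent, and the y axis the log2 ratio of the library to the mean of the other 3 libraries of its group. Each point is 1 gene in 1 library. Bbc3, at 65.2% GC, lies between -2.13 and -1.85, and Pmaip1, at 42.1% GC, between 0.28 and 0.40.

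The largest changes of the family in cytosolic RNA at 16 h against control were opposite in sign when PERK was inhibited for the last 4 h. Bmf, Bcl2l1 and Bak1 fell at 16 h and rose with the inhibitor, while Bid and Pmaip1 rose at 16 h and fell with the inhibitor. Other members did not reverse in this way. Cytosolic Bcl2 fell at 16 h (log2 change -0.43) and again with the inhibitor (-0.98). Cytosolic Bcl2l11 did not pass at 16 h (0.12) and rose with the inhibitor (1.00), and Mcl1 fell at 16 h (-0.54) and did not pass with the inhibitor (-0.03). At 1 h the changes in cytosolic RNA were small, and the clearest movement was onto polysomes, for Bcl2, Bcl2l11 and Pmaip1. In cytosolic RNA at 1 h, 5 of the 10 members passed the test (adjusted p under 0.05), 2 higher and 3 lower, where 56.2% of 12366 genes passed, 28.1% higher and 28.1% lower. At 16 h against control 7 passed, 2 higher and 5 lower, against 77.3% of genes (37.9% higher, 39.4% lower). For 16 h against 1 h it was 9, 4 higher and 5 lower, against 75.3% of genes (37.7% in each direction). With the inhibitor, against 16 h without it, 8 passed, 5 higher and 3 lower, against 74.7% of genes (42.2% higher, 32.5% lower). These shares lie near those of all genes. The members' median log2 change was 0.02 at 1 h, -0.16 at 16 h against control, -0.03 at 16 h against 1 h and 0.16 with the inhibitor, and the medians over all genes were 0.00, -0.01, 0.01 and 0.10.

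In polysome RNA 7 members passed at 1 h, 5 higher and 2 lower, where 79.5% of 12065 genes passed (41.1% higher, 38.5% lower). At 16 h against control all 10 passed, 5 higher and 5 lower, against 85.1% of genes (42.3% and 42.9%). Against 1 h, 8 passed at 16 h, 2 higher and 6 lower, against 78.5% (38.4% and 40.0%), and with the inhibitor 9 passed, 5 higher and 4 lower, against 82.8% (42.1% and 40.7%). Here too the members passed about as often as other genes. Their medians were 0.35, 0.04, -0.26 and 0.18, beside 0.03, -0.01, -0.03 and 0.04 for all genes. Translational efficiency, used here for the ratio of a gene's polysome level to its cytosolic level, passed for 6 members at 1 h (4 higher, 2 lower), where 67.8% of 12561 genes passed (33.4% higher, 34.4% lower). At 16 h 6 passed against control, 3 in each direction, against 64.2% (31.1% and 33.0%), and 4 passed against 1 h, 1 higher and 3 lower, against 28.1% (14.5% and 13.6%). With the inhibitor 5 passed, 1 higher and 4 lower, against 60.1% (26.4% and 33.7%). The medians were 0.14, -0.11, -0.26 and -0.29 for the members and -0.01, -0.04, 0.00 and -0.09 for all genes. The comparisons share samples: both comparisons with control use the same 4 control samples, and the 16 h samples enter 3 of the 4 comparisons.

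**Figure D2:**
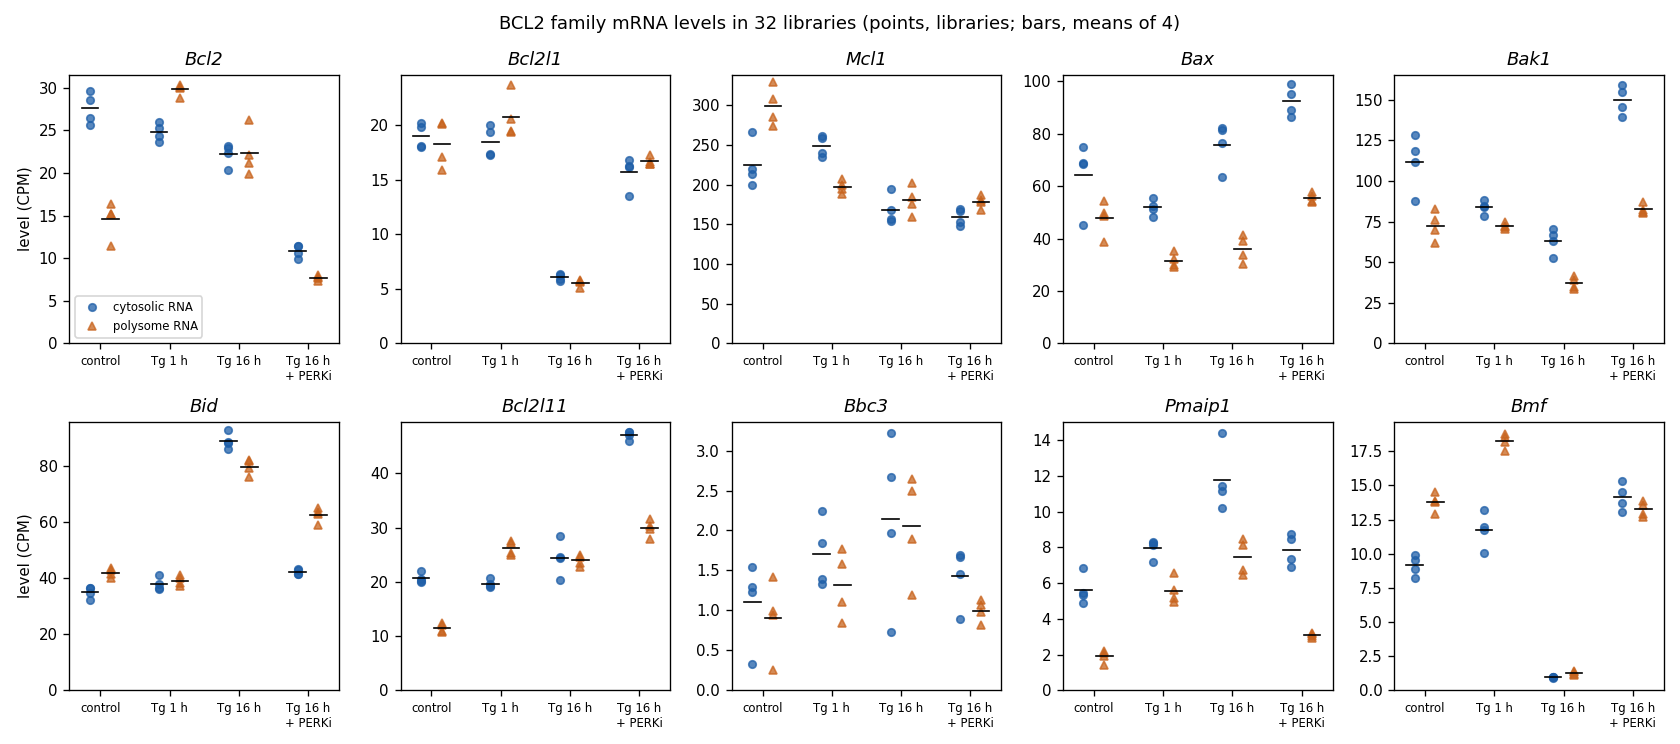
Level of each member in all 32 libraries, in CPM on a linear axis that starts at 0, by condition. Blue circles are cytosolic libraries, orange triangles polysome libraries, and black bars the means of 4. Bmf is under 1.4 CPM in all 8 libraries at 16 h and above 8 CPM in all others.

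Per kilobase of transcript, which allows genes to be compared with each other, Bax and Mcl1 led in control cytosolic RNA with 74.1 ± 15.2 and 65.8 ± 8.41 CPM per kb (SD, n = 4). These neighbours did not differ beyond their spread. Bak1 followed with 46.7 ± 7.24, Bid with 16.0 ± 0.979 and Bcl2l1 with 7.42 ± 0.453 CPM per kb. Bcl2l11 (4.10 ± 0.179) and Bcl2 (3.83 ± 0.253) lay within their spread of each other, as did Pmaip1 (2.07 ± 0.311) and Bmf (1.97 ± 0.16). Bbc3 was lowest, at 0.607 ± 0.293 CPM per kb. At 16 h the order was Bax (87.4 ± 9.96), Mcl1 (49.3 ± 5.45), Bid (40.7 ± 1.28), Bak1 (26.5 ± 3.22), Bcl2l11 (4.85 ± 0.663), Pmaip1 (4.33 ± 0.665), Bcl2 (3.09 ± 0.174), Bcl2l1 (2.36 ± 0.118), Bbc3 (1.18 ± 0.593) and Bmf (0.207 ± 0.00998). Bid had thus passed Bak1, and Bmf had moved from above Bbc3 to below it, while Bcl2l11 and Pmaip1 lay within their spread of each other. With the inhibitor Bak1 (62.8 ± 3.73) lay above Mcl1 (46.6 ± 3.03), Bmf (3.05 ± 0.217) lay above Bcl2 (1.51 ± 0.106), and Bax (106.7 ± 6.55) still led. The lengths are those of the longest coding transcript in the GENCODE annotation of GRCm38, and the isoforms present in these cells were not measured.

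Bcl2l1, on GRCm38 chr2:152780668-152831728 (minus strand, protein-coding), encodes BCL-XL, a main prosurvival protein of fibroblasts. Its cytosolic level in control replicates 1 to 4 was 18.0, 20.2, 18.1 and 19.9 CPM, and at 1 h it was 20.1, 17.4, 19.4 and 17.2 CPM. At 16 h it was 5.95, 6.26, 6.36 and 5.70 CPM, and with the inhibitor 16.9, 13.5, 16.3 and 16.2 CPM. All 4 libraries at 16 h lay below every other cytosolic library, and those with the inhibitor lay below those of the control group but close to them. The fall at 16 h was 3.42-fold (log2 change -1.78 ± 0.0871 SE, adjusted p = 6.24e-12) and the rise with the inhibitor 2.69-fold (1.43 ± 0.0869, adjusted p = 1.49e-10). Polysome RNA moved alike, from 18.3 ± 2.14 CPM in control to 5.55 ± 0.34 at 16 h (SD, n = 4; 3.48-fold lower, adjusted p = 1.65e-13) and 16.7 ± 0.39 with the inhibitor (3.07-fold higher, adjusted p = 9.62e-13). Translational efficiency did not pass in these comparisons, with log2 changes of -0.07 ± 0.111 at 16 h and 0.22 ± 0.111 with the inhibitor (adjusted p = 0.623 and 0.0962). The value at 16 h turned positive and passed with a correction for coding length (0.38, adjusted p = 0.0057). The value with the inhibitor passed in a partial variance fit, in which the cytosolic level is a covariate of the polysome level (1.12, adjusted p = 0.0373). At 1 h the cytosolic change was -0.06 ± 0.0819 (adjusted p = 0.589), and -0.16 with the GC trend removed, which passed. The polysome level then rose 1.18-fold (log2 change 0.24 ± 0.0844, adjusted p = 0.0154), a call that was lost without control replicate 1 (0.17) or without 1 h replicate 3 (0.16).

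Bcl2, on chr1:106538178-106714274 (minus strand, protein-coding), encodes the founding prosurvival member and moved differently in the RNA pools. In cytosolic RNA the controls held 29.6, 25.6, 28.6 and 26.5 CPM, the 1 h libraries 23.7, 24.3, 26.0 and 25.3 CPM and the 16 h libraries 23.1, 20.4, 22.4 and 22.97 CPM. With the inhibitor the level was 9.88, 11.5, 10.6 and 11.5 CPM, the lowest of the groups. Cytosolic Bcl2 fell 1.35-fold at 16 h against control (log2 change -0.43 ± 0.0612, adjusted p = 5.71e-06) and a further 1.97-fold with the inhibitor (-0.98 ± 0.0632, adjusted p = 3.16e-10). The fall at 1 h was 1.12-fold (-0.17 ± 0.0613, adjusted p = 0.0294) and did not pass without control replicate 1 or 3, or without 1 h replicate 1, 2 or 4, where it lay between -0.16 and -0.14, or with the GC trend removed (-0.10). On polysomes the controls held 15.2, 15.2, 16.3 and 11.5 CPM and the 1 h libraries 30.1, 28.8, 30.0 and 30.4 CPM. The 1 h libraries were all higher than any other polysome library, 2.13-fold above control (1.09 ± 0.0899, adjusted p = 5.75e-10). At 16 h polysome Bcl2 was still 1.46-fold above control (0.54 ± 0.0896, adjusted p = 1.14e-05), with 21.1, 22.1, 26.2 and 19.9 CPM (0.28 with the GC trend removed). With the inhibitor it fell 2.83-fold, to 7.36, 7.72, 7.74 and 8.08 CPM (-1.498 ± 0.0923, adjusted p = 4.2e-12), below every control library. Translational efficiency rose 2.29-fold at 1 h (1.20 ± 0.109, adjusted p = 1.48e-08) and 1.91-fold at 16 h (0.93 ± 0.109, adjusted p = 4.73e-07), and fell 1.40-fold with the inhibitor (-0.49 ± 0.112, adjusted p = 0.000915).

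Mcl1, on chr3:95658788-95663176 (plus strand, protein-coding), encodes a prosurvival protein of short half-life. Its control cytosolic level was 266, 199.7, 214 and 219.7 CPM and its level at 16 h 195, 157, 154 and 169 CPM. Every 16 h library lay below every control library, a 1.45-fold fall (log2 change -0.54 ± 0.0802, adjusted p = 1.03e-05). In the inhibitor group Mcl1 stood at 153, 169, 148.1 and 167 CPM, within the range at 16 h or just below it (log2 change -0.03 ± 0.0801, adjusted p = 0.781). The failed test does not show that the levels were alike. At 1 h the cytosolic libraries held 235, 259.5, 240.2 and 261 CPM and did not pass against control (0.13 ± 0.0799, adjusted p = 0.165), though they did without control replicate 1 (0.22) and with the GC trend removed (0.18). With the GC trend removed, polysome Mcl1 passed with the inhibitor (0.21, adjusted p = 6.94e-05). On polysomes the controls held 274 to 329.5 CPM and the 1 h libraries 189 to 207 CPM, without overlap. Polysome Mcl1 fell 1.46-fold at 1 h (-0.55 ± 0.0616, adjusted p = 7.36e-08) and 1.75-fold at 16 h (-0.80 ± 0.0617, adjusted p = 1.37e-10). Its translational efficiency was thus opposite to that of Bcl2: it fell 1.68-fold at 1 h (-0.75 ± 0.119, adjusted p = 1.87e-05). The fall of 1.25-fold at 16 h (-0.32 ± 0.119, adjusted p = 0.0268) did not pass without control replicate 2 or 3 or 16 h replicate 1 or 4 (-0.26 to -0.24), and with a correction for coding length it was 0.15.

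Of the effector genes, Bak1 fell at 16 h and rose with the inhibitor, as Bcl2l1 did. Bak1, on chr17:27019810-27029009 (minus strand, protein-coding), encodes BAK. It overlaps Ggnbp1 on the opposite strand, and whether counting used the strand is not given; Ggnbp1 had at most 1.37 CPM in any library. Cytosolic Bak1 stood at 87.6, 128.2, 118.2 and 111.9 CPM in control, 88.1, 83.9, 84.8 and 78.4 CPM at 1 h, and 52.5, 66.5, 70.4 and 63.2 CPM at 16 h. In the inhibitor group Bak1 stood at 159, 139.5, 155 and 145.7 CPM, higher than every other cytosolic library. It fell 1.34-fold at 1 h, where control replicate 1 lay within the 1 h range (log2 change -0.43 ± 0.107, adjusted p = 0.0029), and 1.92-fold at 16 h (-0.94 ± 0.108, adjusted p = 5.37e-07), and rose 2.46-fold with the inhibitor (1.30 ± 0.108, adjusted p = 1.19e-08). Over all alternative fits the rise lay between 1.03 and 1.355 and passed in each. Polysome Bak1 did not pass at 1 h (0.05 ± 0.0784, adjusted p = 0.548), though it did with the GC trend removed (0.15, adjusted p = 0.00127). It fell 2.05-fold at 16 h, from between 61.7 and 82.6 CPM to between 33.4 and 41.2 CPM (adjusted p = 1.52e-10; -1.04 ± 0.08, and -0.57 with the GC trend removed), and rose 2.27-fold with the inhibitor (adjusted p = 1.87e-11). Translational efficiency rose 1.32-fold at 1 h (0.41 ± 0.13, adjusted p = 0.0103; 0.72 with the GC trend removed). It did not pass at 16 h (-0.15 ± 0.131) or with the inhibitor (-0.10 ± 0.131), and both signs depended on the fit. The value at 16 h was 0.19 (adjusted p = 0.00277) with the GC trend removed and -1.02 (adjusted p = 0.00058) under partial variance. Without the samples that hold a library with a steep trend it was -0.28 (adjusted p = 0.037). With the inhibitor it was -0.46 (adjusted p = 0.00435) with the length correction and 1.25 (adjusted p = 0.00209) under partial variance.

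Bax, on chr7:45461697-45466898 (minus strand, protein-coding), encodes the effector that moves from the cytosol to mitochondria, and several of its values changed when the GC trend was removed. Its cytosolic level was 45.03, 74.9, 68.3 and 68.7 CPM in control, 55.6, 51.4, 52.5 and 48.2 CPM at 1 h, and 63.3, 81.2, 82.0 and 76.5 CPM at 16 h. In the inhibitor group Bax stood at 98.95, 89.1, 95.3 and 86.5 CPM. The inhibitor group lay above all other cytosolic libraries, 1.27-fold above 16 h (log2 change 0.34 ± 0.128, adjusted p = 0.0257). The median over all genes also moved up in that comparison, by 0.10, and over 3166 genes with at least 55% GC by 0.34. Bcl2l1 (55.9% GC), Bak1 (57.1%) and Bbc3 (65.2%) lie in that band too. After the GC trend was removed the Bax value was -0.02 (adjusted p = 0.66), and it did not pass without 16 h replicate 1 (0.26) or without inhibitor replicate 1 or 3 (0.30 and 0.32). The fall at 1 h (1.25-fold, -0.32 ± 0.13, adjusted p = 0.0468) was lost without control replicate 2, 3 or 4 or 1 h replicate 2, 3 or 4 (-0.33 to -0.23), and at 16 h cytosolic Bax did not pass (0.11 ± 0.129, adjusted p = 0.428). With the GC trend removed these values were -0.57 and 0.30, and both passed. On polysomes Bax fell 1.46-fold at 1 h (-0.54 ± 0.106, adjusted p = 0.00014), from 49.8, 48.7, 38.6 and 54.2 CPM to 35.2, 32.2, 29.0 and 29.9 CPM. At 16 h it fell 1.39-fold (-0.47 ± 0.104, adjusted p = 0.0004), with libraries that overlapped those of the control group, and the value was 0.04 after the GC trend was removed. With the inhibitor polysome Bax rose 1.57-fold (0.65 ± 0.103, adjusted p = 1.48e-05), and the value was 0.32 with the GC trend removed. Between 1 h and 16 h it did not pass (0.07 ± 0.106), though it did with the GC trend removed (0.51, adjusted p = 1.61e-07). Translational efficiency fell 1.58-fold at 16 h (-0.66 ± 0.176, adjusted p = 0.00363), a call lost with the length correction (-0.30), and passed in no other comparison as fitted, though it did at 1 h without control replicate 3 (-0.45) or under partial variance (-0.63), and with the inhibitor without 16 h replicate 1 (0.47), with the GC trend removed (0.37) or under partial variance (0.68). At 16 h against 1 h it passed with the GC trend removed (-0.37).

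The member with the largest changes was Bmf, on chr2:118528757-118549687 (minus strand, protein-coding). It encodes a BH3-only protein that is held at the cytoskeleton by dynein light chain in healthy cells. Its cytosolic level was 9.92, 9.53, 8.88 and 8.23 CPM in control and 11.8, 11.95, 13.2 and 10.1 CPM at 1 h. At 16 h it was 0.966, 0.996, 0.983 and 0.892 CPM, and with the inhibitor 13.7, 15.4, 14.6 and 13.03 CPM. Each group stood apart from the others, except that 1 inhibitor library lay within the range at 1 h. Bmf rose 1.28-fold at 1 h (log2 change 0.35 ± 0.0847, adjusted p = 0.00204), fell 10.3-fold at 16 h (-3.37 ± 0.108, adjusted p = 1.94e-14) and rose 15.3-fold with the inhibitor (3.93 ± 0.107, adjusted p = 6.18e-15). All 4 inhibitor libraries were above all 4 control libraries. On polysomes it was 12.9 to 14.5 CPM in control, 17.5 to 18.8 CPM at 1 h, 1.10 to 1.38 CPM at 16 h and 12.7 to 13.9 CPM with the inhibitor. There it fell 11.5-fold at 16 h (adjusted p = 1.18e-18) and rose 10.8-fold with the inhibitor (adjusted p = 2.8e-18). Its translational efficiency did not pass at 1 h (0.05 ± 0.112) or at 16 h (-0.21 ± 0.154). With the inhibitor it fell 1.40-fold (-0.48 ± 0.152, adjusted p = 0.0123), a call lost without 16 h replicate 4 (-0.40). Under partial variance the direction turned, and the value passed (3.62, adjusted p = 0.00379). That value lay near the change in polysome RNA itself (3.43). The mean log2 ratio of polysome to cytosolic level went from 0.38 at 16 h to -0.09 with the inhibitor.

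Bid moved the other way. It lies on chr6:120891930-120916853 (minus strand, protein-coding) and encodes a BH3-only protein that caspase 8 cleaves, which links death receptors to mitochondria. Cytosolic Bid was 36.6, 34.7, 32.1 and 36.6 CPM in control, 36.2, 36.4, 38.0 and 41.2 CPM at 1 h, 93.0, 86.4, 88.8 and 88.3 CPM at 16 h and 41.4, 42.8, 43.4 and 41.6 CPM with the inhibitor. The 16 h libraries stood above all others, and those with the inhibitor lay just above the controls. The rise at 16 h was 2.34-fold (log2 change 1.23 ± 0.0504, adjusted p = 5.89e-13) and the fall with the inhibitor 2.03-fold (-1.02 ± 0.05, adjusted p = 8.55e-12), while 1 h did not pass (0.10 ± 0.0507, adjusted p = 0.0996), except with the GC trend removed (0.13). Polysome Bid rose 1.81-fold at 16 h, from between 40.1 and 43.6 CPM to between 76.2 and 82.4 CPM (0.85 ± 0.0505, adjusted p = 1.88e-12). With the inhibitor it fell only to between 59.1 and 65.2 CPM, 1.25-fold (-0.32 ± 0.0494, adjusted p = 5.53e-06), so that its translational efficiency rose 1.65-fold (0.73 ± 0.0672, adjusted p = 2.84e-08). Bid overlaps Bcl2l13 on the opposite strand, and reads of the pair cannot be told apart if counting ignored strand. Cytosolic Bcl2l13 changed in the other direction, from 139.9 ± 2.75 CPM in control to 108 ± 2.45 at 16 h and 142.5 ± 2.94 with the inhibitor (SD, n = 4). Polysome Bcl2l13 was 207 ± 6.76 CPM in control, 104.4 ± 3.05 at 1 h, 86.99 ± 2.7 at 16 h and 177.7 ± 1.55 with the inhibitor. It thus lay above the cytosolic level in control and with the inhibitor, and below it at 1 h (cytosolic 110.9 ± 2.375) and 16 h. These shifts have the same directions as those in the translational efficiency of Bid. Whether Bcl2l13 reads enter the Bid values was not tested. Translational efficiency of Bid fell 1.16-fold at 1 h (-0.22 ± 0.0691, adjusted p = 0.00985) and 1.34-fold at 16 h (-0.42 ± 0.0678, adjusted p = 2.25e-05). Both calls were lost with the length correction, which gave 0.0071 and -0.055.

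The promoters of the 4 genes with the largest log2 changes in cytosolic RNA between 16 h and the inhibitor group are shown together, since 3 of them moved one way and Bid the other. Bid and the next gene, Bcl2l11, differed in size by less than their SE, and in polysome RNA Bcl2 and Pmaip1 moved more than Bak1 and Bid. Each sequence is 300 bases around an annotated transcription start, from RefSeq on GRCm38.p6, written in the direction of transcription. Capitals mark a match to 1 of 6 motifs searched on both strands. These were the C/EBP-ATF response element TGATGNAA, the cAMP response element TGACGTCA, the AP-1 site TGANTCA and the forkhead site GTAAACA. The other motifs, given by name, were the ER stress element and the p53 unit. The p53 unit is only a part of the p53 response element, and the full element was not searched for. The Bmf sequence is the start at which a motif was found, 1 of 3 starts listed for the gene, and the Bcl2l1 sequence is the outermost of 3.
Bmf, chr2:118544538-118544837, minus strand: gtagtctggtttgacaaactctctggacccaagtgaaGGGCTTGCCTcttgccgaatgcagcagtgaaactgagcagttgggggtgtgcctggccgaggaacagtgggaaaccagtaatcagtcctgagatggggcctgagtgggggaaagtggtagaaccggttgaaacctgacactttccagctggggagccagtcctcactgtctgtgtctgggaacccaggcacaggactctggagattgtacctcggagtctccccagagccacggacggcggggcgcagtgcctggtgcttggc
Bcl2l1, chr2:152831679-152831978, minus strand: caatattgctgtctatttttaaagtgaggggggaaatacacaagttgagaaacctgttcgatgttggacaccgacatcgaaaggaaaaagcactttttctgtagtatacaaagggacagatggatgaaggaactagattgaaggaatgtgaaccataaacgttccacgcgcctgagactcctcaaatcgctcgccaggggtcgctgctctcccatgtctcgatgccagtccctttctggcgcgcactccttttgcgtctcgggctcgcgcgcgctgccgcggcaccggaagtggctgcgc
Bak1, chr17:27028578-27028877, minus strand: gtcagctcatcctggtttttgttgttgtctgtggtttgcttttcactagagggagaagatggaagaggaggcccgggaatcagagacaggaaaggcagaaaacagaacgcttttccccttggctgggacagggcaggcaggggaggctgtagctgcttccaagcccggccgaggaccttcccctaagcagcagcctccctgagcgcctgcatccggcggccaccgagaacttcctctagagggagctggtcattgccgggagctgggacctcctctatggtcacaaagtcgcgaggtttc
Bid, chr6:120916775-120917074, minus strand: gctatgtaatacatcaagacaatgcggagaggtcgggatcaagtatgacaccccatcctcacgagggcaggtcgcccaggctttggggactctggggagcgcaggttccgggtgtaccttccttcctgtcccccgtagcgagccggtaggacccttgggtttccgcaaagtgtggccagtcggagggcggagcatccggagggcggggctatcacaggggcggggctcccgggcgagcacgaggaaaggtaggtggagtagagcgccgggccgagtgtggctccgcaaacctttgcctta
The Bmf window held a match to the p53 unit at positions -213 to -204 from the start. The windows of Bcl2l1, Bak1 and Bid held none of the 6 motifs. Over 16 promoters of 9 members (all but Pmaip1), 3 more matches were found. They were the p53 unit in Bax (-201 to -192) and forkhead sites in Bcl2l11 (-227 to -221) and Bbc3 (-167 to -161). None of the 16 held the C/EBP-ATF element, the cAMP response element, the AP-1 site or the ER stress element in these windows. Of 32851 mouse promoter windows of the same length, 8.36% held the p53 unit, 3.65% the forkhead site and 3.97% the C/EBP-ATF element. The AP-1 site was in 7.81%, the cAMP response element in 1.79% and the ER stress element in 0.119%. The C/EBP-ATF element is the kind of site that ATF4 and CHOP bind, and forkhead sites are bound by FOXO factors. No match overlapped another. A match in these letters is a description of the sequence and shows no binding.

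Bcl2l11, on chr2:128126038-128162547 (plus strand, protein-coding), encodes BIM, a BH3-only protein that binds every prosurvival member. In cytosolic RNA it was 22.0, 20.6, 20.2 and 20.0 CPM in control, 19.1, 20.6, 19.2 and 19.7 CPM at 1 h and 28.5, 20.3, 24.5 and 24.5 CPM at 16 h, groups that overlapped. With the inhibitor all 4 libraries were higher, at 45.9, 47.1, 47.6 and 47.7 CPM, 2.00-fold above 16 h (log2 change 1.00 ± 0.0704, adjusted p = 1e-09). Cytosolic Bcl2l11 did not pass against control at 1 h (-0.08 ± 0.0721) or 16 h (0.12 ± 0.0712, adjusted p = 0.137; 0.20 with adjusted p = 0.00462 without 16 h replicate 2). The rise of 16 h over 1 h (0.20 ± 0.0719, adjusted p = 0.0172) was lost without 16 h replicate 1 (0.13). The polysome level changed earlier. It was 12.4, 10.9, 12.1 and 10.8 CPM in control and 24.9, 27.2, 25.4 and 27.5 CPM at 1 h, a 2.35-fold rise without overlap (1.23 ± 0.0652, adjusted p = 3.61e-13). At 16 h it was 24.6, 22.7, 25.02 and 23.5 CPM (1.97-fold above control, adjusted p = 1.19e-11), and with the inhibitor it rose a further 1.27-fold to 31.5, 27.9, 29.7 and 30.2 CPM (adjusted p = 2.6e-05). Translational efficiency rose 2.39-fold at 1 h (1.25 ± 0.0876, adjusted p = 3.59e-10) and 1.76-fold at 16 h (0.82 ± 0.0868, adjusted p = 1.23e-07). It was lower at 16 h than at 1 h (-0.43 ± 0.0856, adjusted p = 0.0011) and fell 1.56-fold with the inhibitor (-0.64 ± 0.0837, adjusted p = 2.48e-06). The promoter of its first listed start holds the forkhead match, here in capitals.
Bcl2l11, chr2:128125788-128126087, plus strand: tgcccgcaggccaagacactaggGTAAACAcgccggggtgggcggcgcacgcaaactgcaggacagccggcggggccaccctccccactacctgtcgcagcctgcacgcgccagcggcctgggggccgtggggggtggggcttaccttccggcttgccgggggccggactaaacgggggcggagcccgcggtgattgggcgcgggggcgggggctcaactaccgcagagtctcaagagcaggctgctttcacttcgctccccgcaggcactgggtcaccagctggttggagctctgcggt

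Pmaip1, on chr18:66458533-66465565 (plus strand, protein-coding), encodes NOXA, a BH3-only protein that binds mainly MCL1. Its cytosolic level rose stepwise over the groups, with 6.85, 5.33, 5.47 and 4.88 CPM in control, 8.12, 8.24, 7.18 and 8.31 CPM at 1 h and 14.4, 11.4, 10.2 and 11.2 CPM at 16 h, and no library of one group overlapped the next. In the inhibitor group Pmaip1 stood at 7.34, 8.47, 6.88 and 8.78 CPM, near the 1 h level. The rise was 1.41-fold at 1 h (log2 change 0.49 ± 0.119, adjusted p = 0.00205) and 1.93-fold at 16 h (0.95 ± 0.116, adjusted p = 1.04e-06), and the fall with the inhibitor 1.45-fold (-0.53 ± 0.113, adjusted p = 0.000441). The change on polysomes was larger. Control polysome libraries held 1.41, 2.09, 2.20 and 1.93 CPM, those at 1 h 6.57, 5.15, 4.95 and 5.60 CPM and those at 16 h 6.74, 8.13, 8.49 and 6.43 CPM. The rise was 3.03-fold at 1 h (1.60 ± 0.138, adjusted p = 1.19e-09) and 3.69-fold at 16 h (1.88 ± 0.133, adjusted p = 3.65e-11). With the inhibitor the level fell 2.37-fold, to 3.19, 3.02, 2.94 and 3.16 CPM (-1.24 ± 0.121, adjusted p = 6.85e-09), still above every control. The further rise from 1 h to 16 h (0.28 ± 0.119, adjusted p = 0.0362) did not pass without 1 h replicate 2, 3 or 4 or 16 h replicate 2 or 3 (0.23 to 0.28), and was 0.11 after the GC trend was removed. Translational efficiency rose 2.05-fold at 1 h (1.03 ± 0.212, adjusted p = 0.000276) and 1.85-fold at 16 h (0.89 ± 0.205, adjusted p = 0.00093), and fell 1.61-fold with the inhibitor (-0.69 ± 0.191, adjusted p = 0.00438). The GC correction gave 0.64, 0.50 and -0.51, and the length correction 0.68, 0.81 and -0.48, the last of which did not pass (adjusted p = 0.062).

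Bbc3, on chr7:16308393-16318205 (plus strand, protein-coding), encodes PUMA, a BH3-only protein best known as a p53 target. It was near the limit of what these libraries resolve, at 0.332, 1.55, 1.23 and 1.30 CPM in control cytosolic RNA, 2.24, 1.40, 1.85 and 1.33 CPM at 1 h and 0.724, 3.22, 2.67 and 1.97 CPM at 16 h. The low values of replicate 1 at 0 h and 16 h are those of the libraries with the steep GC trend. In cytosolic RNA no comparison passed as fitted, with log2 changes of 0.61 ± 0.432 at 1 h, 0.82 ± 0.414 at 16 h and -0.54 ± 0.398 with the inhibitor (adjusted p = 0.25, 0.0817 and 0.231). Without those libraries the change was 0.82 at 16 h (adjusted p = 0.00478) and -0.82 with the inhibitor (adjusted p = 0.00245), and both passed. Leaving out 16 h replicate 1 alone gave 1.11 and -0.82, which also passed. Over all alternative fits the cytosolic change with the inhibitor lay between -1.08 and -0.27. At 16 h against 1 h it was 0.22 as fitted and between -0.05 and 0.64 in the alternatives, some of which passed. On polysomes Bbc3 was 0.943, 0.987, 0.256 and 1.42 CPM in control and 2.49, 1.89, 1.19 and 2.64 CPM at 16 h, a 2.15-fold rise (1.11 ± 0.337, adjusted p = 0.00544) with 1 library in the range of the control group. It fell 2.02-fold with the inhibitor, to 0.976, 1.07, 1.13 and 0.816 CPM (-1.02 ± 0.316, adjusted p = 0.00653). Over all alternative fits the polysome change lay between 0.80 and 1.61 at 16 h and between -1.55 and -0.87 with the inhibitor. At 16 h against 1 h it did not pass as fitted (0.48) and lay between 0.34 and 0.91, and some of the alternatives passed. The change at 1 h was 0.62 ± 0.368 (adjusted p = 0.129), and passed without control replicate 4 (0.95) and with the GC trend removed (0.70, adjusted p = 0.00521). Its translational efficiency passed in no comparison as fitted, though at 16 h it did under partial variance (1.43, adjusted p = 0.0198) and with the GC trend removed (0.75, adjusted p = 0.0439), and the SE of 0.575 to 0.655 left changes of the size seen in Bcl2l11 hard to detect.

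**Figure D3:**
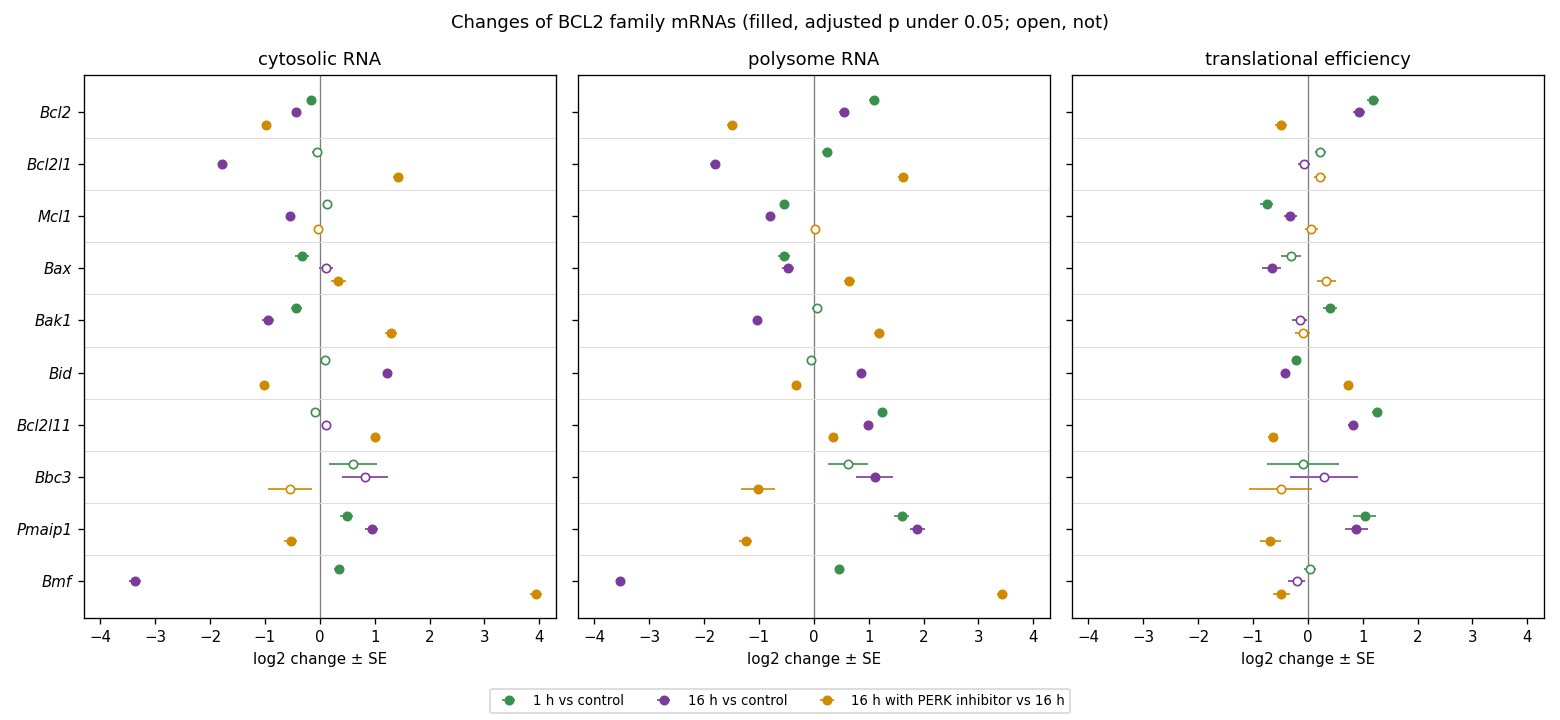
Log2 change ± SE of each member in cytosolic RNA, polysome RNA and translational efficiency (n = 4 per group). Green is 1 h against control, purple 16 h against control and orange the inhibitor group against 16 h; filled points have an adjusted p under 0.05. In the left and middle panels Bmf lies furthest from 0, at -3.37 and 3.93 in cytosolic RNA, and in the right panel Bcl2, Bcl2l11 and Pmaip1 lie between 0.82 and 1.25 in both comparisons with control.

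Translational efficiency separated the members in the control samples already. The mean log2 ratio of polysome to cytosolic level was lowest for Pmaip1 (-1.57 ± 0.47 SD, n = 4), Bcl2 (-0.93 ± 0.203) and Bcl2l11 (-0.84 ± 0.0792), which were among the 4 that rose at 1 h (the other was Bak1, at -0.62 ± 0.28), and highest for Bmf (0.59 ± 0.113) and Mcl1 (0.42 ± 0.254). The median over 12234 genes was 0.06, with quartiles of -0.79 and 0.86, so of the members only Pmaip1, Bcl2 and Bcl2l11 lay below the lower quartile. At 1 h the ratios of Bcl2 were 0.35, 0.24, 0.21 and 0.27 and those of Bcl2l11 0.38, 0.40, 0.40 and 0.48, all above their control values of -1.21 to -0.75 and -0.91 to -0.73. The median moved little, to 0.02, and the quartiles narrowed to -0.47 and 0.52. The ratio of Mcl1 at 1 h was -0.27, -0.37, -0.35 and -0.34, below all control values of 0.10 to 0.62. A start from a low ratio and a rise share the control libraries, so the relation between them is a description only.

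Coding length moved with translational efficiency over all genes. The coding sequences of 9 members measure 576 to 993 nt (Bax and Mcl1 at the ends) and that of Pmaip1 309 nt. The median change over 2432 genes in the range of those 9 was -0.44 at 1 h, -0.47 at 16 h and 0.38 with the inhibitor, and over 545 genes under 400 nt it was 0.43, 0.14 and -0.32. At 1 h and 16 h Bcl2 and Bcl2l11 were thus opposite in sign to the median of genes of like length, and Mcl1 had the same sign. GC content moved with translational efficiency too. The median change was 0.40 at 1 h and 0.38 at 16 h over 2679 genes under 45% GC. Over 3220 genes with at least 55% GC it was -0.34 at both times. Pmaip1 (42.1% GC), Bcl2 (46.25%) and Bcl2l11 (48.03%) had the lowest GC content of the members and rose, as the genes under 45% did. Mcl1, next at 48.68%, fell. With the length trend removed, Bcl2 was at 1.55 at 1 h and 1.39 at 16 h, Bcl2l11 at 1.48 and 1.19, and Mcl1 at -0.30 (adjusted p = 0.0372) and 0.15. Bcl2l1 and Bmf then passed at 1 h with rises of 0.58 and 0.47. Other alternative fits made the rises of Bcl2 and Bcl2l11 smaller than reported. The lowest values at 1 h and 16 h were 0.97 and 0.71 for Bcl2 and 1.09 and 0.67 for Bcl2l11. Both genes passed at both times in every alternative. A partial variance fit models the polysome level with the cytosolic level of the same sample as a covariate, whose slope comes from the spread within groups. It gave -3.63 for Bmf at 16 h and 3.62 with the inhibitor, beside -0.21 and -0.48 for the ratio. With the inhibitor it ended the calls of Bcl2 (-1.12, adjusted p = 0.0638), Bcl2l11 (-0.0030) and Bid (-0.04), at 1 h that of Bak1 (-0.02), and at 16 h that of Bid (0.53).

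**Figure D4:**
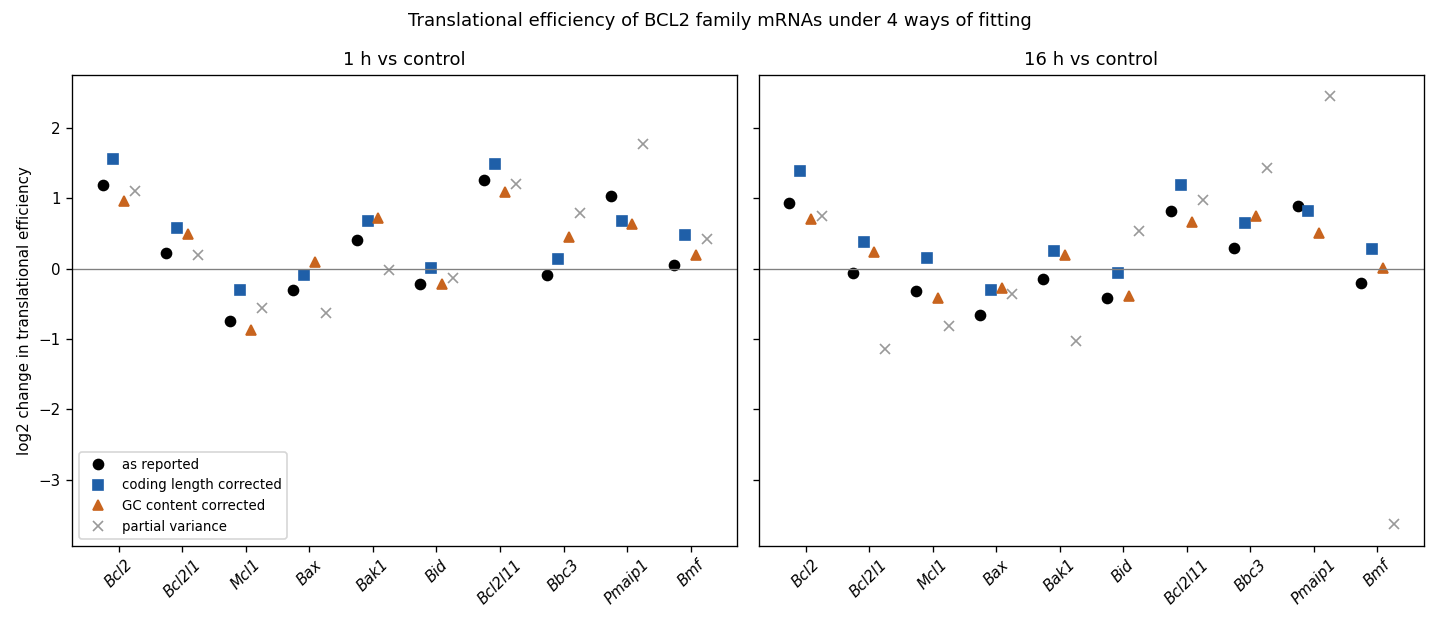
Log2 change in translational efficiency of each member at 1 h (left) and 16 h (right) against control under 4 ways of fitting. Bcl2, Bcl2l11 and Pmaip1 lie above 0 in all of them, and the partial variance fit places Bmf at -3.63 at 16 h.

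The mRNAs also differed in the leader before the start codon, read from the longest coding transcript. Bcl2 has a leader of 1394 nt with 11 upstream AUGs, Bak1 one of 636 nt with 4 and Bcl2l1 one of 393 nt with 4. Bcl2l11 has 227 nt with 1 upstream AUG and Pmaip1 228 nt with 2, while Mcl1 (69 nt), Bid (174 nt) and Bmf (25 nt) have none. Upstream AUGs can hold ribosomes back from the coding start, and some of them relay translation when eIF2 is phosphorylated. The median change at 1 h was -0.14 over 6022 genes with no upstream AUG and 0.18 over 3492 genes with 2 or more. Of the 3 members with no upstream AUG, Mcl1 and Bid fell at 1 h and Bmf did not pass. Of those with an upstream AUG, Bcl2, Bak1, Bcl2l11 and Pmaip1 rose, and Bcl2l1, Bax and Bbc3 did not pass. Leader lengths vary with the start site used, which was not measured here.

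The gene most like a member in level over the 32 libraries was sought among 9718 genes with a mean of at least 5 CPM, by Pearson's r of log2(CPM + 0.5), as a description with no test. The libraries compared share their conditions and RNA kinds, so any gene with a like course across them has a high r. Bcl2 was most like Zfp568 (0.98) and Tmem131 (0.97), Bcl2l1 like Rassf2 (0.97) and Myl9 (0.97), and Bmf like Cyp1b1 (0.97) and again Rassf2 (0.97). For Mcl1 the nearest were Murc (0.94) and Gcnt2 (0.89), the lowest values among the 9 members searched. Bak1 was most like Phospho1 and Kremen1 (0.96 each), Bax like Nme4 (0.95), Bid like Tle1 (0.97) and AW209491 (0.95), Bcl2l11 like Crebl2 (0.94) and Cyb5d1 (0.93), and Pmaip1 like Pibf1 and Ppil4 (0.98 each).

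Other genes of the family and of the steps around it came from lists that hold no member. Over all genes, 37.9% were higher and 39.4% lower in cytosolic RNA at 16 h, and 42.2% and 32.5% with the inhibitor. In translational efficiency at 1 h, 33.4% were higher and 34.4% lower. A list count near these shares is no result about that list. Of 16 further BCL2 family and BH3-like genes, 10 were tested in cytosolic RNA: 3 rose and 3 fell at 16 h (median -0.08, beside -0.01 for all genes), and with the inhibitor 8 rose and 1 fell (median 0.57, beside 0.10). The gene that fell was Hrk, which encodes a BH3-only protein known from neurons. It held 1 to 6 counts in control cytosolic libraries, 95 to 180 counts (2.92 to 4.72 CPM) at 16 h and 5 to 11 counts with the inhibitor, and in polysome RNA 1 to 3, 43 to 66 and 1 to 4 counts. Its 16 h libraries stood above all others in both pools (adjusted p = 1.3e-10 in cytosolic RNA at 16 h and 4.92e-10 with the inhibitor). Bok, an effector-like member, did the opposite, as Bmf did, with 3.79 ± 0.36 CPM in control, 1.07 ± 0.259 at 16 h and 5.86 ± 0.365 with the inhibitor (adjusted p = 2.63e-09 and 8.37e-11). Bnip3, a mitochondrial BH3-like gene, rose 3.59-fold with the inhibitor, from 75.6 ± 5.05 to 262 ± 14.2 CPM (adjusted p = 3.07e-13). In translational efficiency at 1 h, 4 of 10 rose and 3 fell (median 0.21, beside -0.01), with Bcl2l2, the prosurvival BCL-W, up 2.27-fold (adjusted p = 2.36e-10) and Bnip3 down 3.05-fold (adjusted p = 1.09e-11).

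Downstream, 7 of 19 genes of the apoptosome, caspases and their inhibitors rose in cytosolic RNA at 16 h and 7 fell (median 0.03, beside -0.01 for all genes). These counts lie near the shares of all genes, 37.9% higher and 39.4% lower. Birc5, which encodes survivin, fell 3.99-fold, while Cycs (cytochrome c) rose 1.85-fold. With the inhibitor 11 rose and 5 fell (median 0.23, beside 0.10), against 42.2% and 32.5% of all genes. Among those that rose were Birc5, up 3.58-fold, and the initiator caspase genes Casp9 and Casp2, both up 1.83-fold. Of 12 genes of the death receptor arm, which reaches mitochondria through Bid, 4 rose and 5 fell at 16 h (median -0.11). Fas fell 12.2-fold, from 5.11 ± 0.573 to 0.455 ± 0.0933 CPM, Tnfrsf1b fell 3.72-fold, and Tnfrsf21 rose 1.73-fold. At 1 h in translational efficiency 2 of these 12 rose and 6 fell (median -0.37, beside -0.01), against 33.4% and 34.4% of all genes. Cflar, the caspase 8 inhibitor, rose 4.302-fold.

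The counts that follow stand beside the same shares of all genes. In cytosolic RNA these were 37.9% higher and 39.4% lower at 16 h (median -0.01), and 42.2% and 32.5% with the inhibitor (median 0.10). For translational efficiency at 1 h they were 33.4% and 34.4% (median -0.01). Of 12 transcription factors known for acting on family genes 10 were tested. In cytosolic RNA 5 rose and 3 fell at 16 h (median 0.38), and with the inhibitor 3 rose and 7 fell (median -0.79). Atf3, Ddit3 (CHOP) and Atf4 rose 13.1-fold, 32.5-fold and 1.83-fold at 16 h and fell 53.5-fold, 10.4-fold and 3.03-fold with the inhibitor. Of 15 p53 targets outside the family 7 rose and 8 fell at 16 h (median -0.18), and with the inhibitor 8 rose and 6 fell (median 0.28). Gadd45a rose 11.7-fold at 16 h and fell 9.36-fold with the inhibitor, whereas Plk2 and Btg2 fell 4.35-fold and 5.35-fold at 16 h. Among 20 regulators and partners of the proteins 6 rose and 9 fell at 16 h (median -0.11), and 11 rose and 7 fell with the inhibitor (median 0.18). Dynll1 and Dynll2, the dynein light chains that bind BIM and BMF, rose 2.40-fold and 2.09-fold with the inhibitor. The pseudokinase gene Trib3, known as a CHOP target, fell 15.8-fold in the same comparison. In translational efficiency at 1 h 9 of the 20 rose and 9 fell (median -0.17). Huwe1, the ubiquitin ligase that acts on MCL1, rose 3.89-fold, Itpr1, a calcium channel of the ER that BCL2 binds, 4.29-fold, and Vdac1, a channel of the outer mitochondrial membrane, fell 3.04-fold.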

How the data were processed

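Cytosolic and polysome RNA of the 16 samples was sequenced, and the deposited table gives raw read counts per gene for 32 libraries. HISAT and DESeq2 (1.9.23) are named in the submitters' processing notes, with no role. Counting program and strand setting were not given in the sources used here. Both the members and the gene lists were chosen with earlier results of these data known.

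Counts were tested with edgeR 4.0.16 (R 4.3.3) by the robust quasi-likelihood test, with TMM factors and the filter on low counts of filterByExpr (minimum count 10, minimum total 15). The 16 cytosolic and the 16 polysome libraries were fitted separately over the 4 groups, with 12 residual degrees of freedom. Translational efficiency was the interaction of RNA kind and condition over all 32 libraries, with the sample as a block. P-values were two-sided and adjusted by Benjamini-Hochberg over all genes tested, with a threshold of 0.05. Levels are CPM with TMM factors over all 32 libraries, so their ratios differ slightly from the fitted folds. Alternatives were relative log expression factors, DESeq2 1.42.0, no filter, a replicate block, each replicate left out and, for translational efficiency, no block, a coding length correction and partial variance (limma 3.58.1). The GC and coding length corrections removed a loess trend (span 0.3) in each library's deviation from the mean of all libraries fitted. They thus also removed differences between conditions, or between RNA kinds, that followed GC content or coding length. Removal of the GC trend, and leaving out the 3 libraries with a slope beyond 0.33, were added after seeing the data. For translational efficiency the latter left out both libraries of the samples concerned, control replicates 1 and 3 and 16 h replicate 1. For 1 h against control, the cytosolic and translational efficiency tests were run on simulated counts. These had the same spread for every gene, no GC trend and known changes in a small part of the well counted genes. That check therefore does not cover thinly counted genes such as Bbc3, libraries with a GC trend, or comparisons in which most genes change. Genes named besides the 10 members were, for each list, up to 3 called genes with the smallest p in a comparison, and the 2 genes most like each member. Of the genes this rule names, 2 are not reported here. Genes that overlap a member were named after their position was seen. Transcript lengths, GC content and leaders come from the GENCODE annotation of GRCm38. Depth is given as total counts per library, and precision is limited by it for Bbc3.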

Additional observations from a re-analysis of the deposited data

Results flagged for a closer look

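Pmaip1 in cytosolic 1 h replicate 3 stood apart from its group, at 7.18 CPM where the other 3 libraries held 8.12 to 8.31 CPM. Its gap to the nearest library was 0.831 of the group's whole range, just above Dixon's critical value for 4 samples. It was the 1 group of 80 groups of 4 that passed this limit, and chance alone passes about 1 in 20.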

How the results depend on the processing

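Of the 84 values called, DESeq2 kept 80, relative log expression factors 82, no filter 81, the replicate block 82, removal of the GC trend 80 and leaving out the libraries with a steep GC trend 80. Of the 21 called for translational efficiency, the fit with no replicate block kept 21, the coding length correction 15 and partial variance 13. In cytosolic RNA at 1 h, 5 members passed as reported, 3 with no filter and 3 to 5 when 1 replicate was left out. Replicate numbers showed no steady pairing of the samples. Deviations from the group mean were correlated over 24 pairs of same-numbered libraries per RNA kind. The correlation ran from -0.451 to 0.605 in cytosolic RNA (median 0.0075) and from -0.437 to 0.52 in polysome RNA (median -0.011). With a replicate block, cytosolic counts of called members were 4, 7, 9 and 8, polysome counts 7, 10, 7 and 9, and counts for translational efficiency 6, 6, 4 and 5 (1 h, 16 h, 16 h against 1 h, inhibitor). The block lost Bax in cytosolic RNA at 1 h (-0.31, adjusted p = 0.0687) and Pmaip1 on polysomes at 16 h against 1 h (0.28, adjusted p = 0.0605). Values that changed sign follow as log2 changes, and for them the cause was not tested.

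With the GC trend removed, cytosolic Mcl1 and Bax with the inhibitor were 0.0074 and -0.025, and polysome Bax at 16 h was 0.037. For translational efficiency that correction gave Bax 0.094 and Bbc3 0.44 at 1 h, and Bcl2l1 0.24, Bak1 0.19 and Bmf 0.0036 at 16 h. Without the libraries with a steep GC trend, cytosolic Mcl1 with the inhibitor was 0.046 and polysome Bak1 at 1 h -0.016. In translational efficiency that setting, which left out both libraries of those samples, gave Bmf -0.041 at 1 h, Bbc3 -0.23 at 16 h and -0.083 at 16 h against 1 h, and Mcl1 -0.014 and Bak1 0.025 with the inhibitor. Relative log expression factors and DESeq2 each gave polysome Bak1 -0.00048 at 1 h. The length correction gave Bid 0.0071 and Bbc3 0.13 at 1 h, Bcl2l1 0.38, Mcl1 0.15, Bak1 0.25 and Bmf 0.29 at 16 h, Pmaip1 0.13 at 16 h against 1 h, and Bcl2l1 -0.19 and Mcl1 -0.28 with the inhibitor. Partial variance gave Bak1 -0.022 and Bbc3 0.79 at 1 h, Bid 0.53 at 16 h, and Mcl1 -0.25, Bax 0.27, Bid 0.67 and Pmaip1 0.68 at 16 h against 1 h. With the inhibitor it gave Mcl1 -0.028, Bak1 1.25, Bid -0.037 and Bmf 3.62. Of the values in this paragraph, those that passed the test were Bak1 at 16 h with the GC trend removed, Bcl2l1 at 16 h with the length correction and, under partial variance, Pmaip1 at 16 h against 1 h and Bak1 and Bmf with the inhibitor.

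Leaving out 1 replicate gave ranges across 0 for cytosolic Bax at 16 h (-0.027 to 0.20), Bbc3 at 16 h against 1 h (-0.046 to 0.50) and Mcl1 with the inhibitor (-0.068 to 0.046). On polysomes it did so for Bak1 at 1 h (-0.016 to 0.12), Bax at 16 h against 1 h (-0.0033 to 0.16) and Mcl1 with the inhibitor (-0.043 to 0.058). In translational efficiency it did so for Bbc3 at 1 h (-0.51 to 0.28), at 16 h (-0.18 to 0.66) and at 16 h against 1 h (-0.087 to 0.73), Bmf at 1 h (-0.026 to 0.12), and Bak1 (-0.19 to 0.024) and Mcl1 (-0.016 to 0.17) with the inhibitor. Depth limits Bbc3, which had as few as 7 counts in a library.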
